A study of Mus musculus with 6 samples.

Results

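Splicing regulators with cell-type-limited expression were followed in mouse ovary RNA as a set of 10 genes: Esrp1, Esrp2, Mbnl1, Mbnl2, Mbnl3, Rbfox2, Celf1, Celf2, Nova1 and Khdrbs3. They were taken by gene symbol. All 10 were found among the 25239 genes of the count table, and all 10 passed the filter on low counts that left 14849 genes for testing. The libraries came from C57BL/6 ovaries at embryonic stage E18.5, with 3 libraries of genotype WT and 3 of genotype Hnrnpl-null. Hnrnpl encodes an RNA-binding splicing regulator, and the title of the series asks about its part in germ cell integrity and in the founding of the primordial follicle pool. The labels give oocyte as the cell type and ovary as the tissue, and name no sort. The titles of the Hnrnpl-null libraries carry the letters CKO and the name of the deposited table carries stra8, and neither is explained. The labels also do not name a Cre driver, the deleted exons, the number of animals per library or whether animals were pooled, so the spread that p-values measure is that between libraries and may be technical.

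Proteins of this kind bind short RNA motifs in or near an alternative exon and, depending on where they sit, favour its inclusion or its skipping. ESRP proteins are known for the splicing programme of epithelial cells. MBNL proteins, which CELF proteins oppose on some exons, are known from muscle and heart and from myotonic dystrophy. RBFOX and NOVA proteins are best known from neurons and muscle, and the product of Khdrbs3, a STAR family protein, from brain and testis. A count per gene gives the amount of a regulator's RNA but not the splicing of its targets, which was not analysed here.

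Total counts ran from 8949781 to 22401419 per library. Rn45s, the 45S pre-ribosomal RNA, made up 83.0% of WT replicate 1 and 86.1% of Hnrnpl-null replicate 3, where the other 4 libraries had 18.6% to 36.0%. Hnrnpl-null replicate 3 also stood apart from the rest, at 112 on principal component 1 of log CPM against -36.1 to -5.91. The 10 regulators together held 1584 counts in that library and 3889 to 14163 in the others. Levels are CPM, the counts of a gene scaled to a common library size after TMM normalisation, which corrects for a few genes taking much of a library. The targeted gene did not check the labels: Hnrnpl ranged from 145 to 172 CPM over the WT libraries and from 166 to 213 CPM over the Hnrnpl-null libraries, and it was not called by the edgeR quasi-likelihood test (adjusted p = 0.50). The labels name the ovary as tissue and no sort, so fewer cells of a type and less RNA per cell cannot be told apart in any value below.

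Esrp1 fell and Mbnl1 rose in Hnrnpl-null, and the other 8 regulators were not called. A gene was called at an edgeR Benjamini-Hochberg adjusted p below 0.05 over all genes tested. By that rule 2.67% of all genes were called higher, against 1 of the 10 regulators, and 1.79% were called lower, also against 1 of the 10. The median log2 fold change of the 10 was -0.0043, beside -0.010 over all genes tested. The Hnrnpl-null and WT groups did not overlap for 5 of the 10, beside 25.6% of all genes, and the same 5 had an unadjusted p below 0.05, as did 2746 of the 14849. These 5 were Esrp1 and Esrp2, lower in Hnrnpl-null, and Mbnl1, Mbnl3 and Celf2, higher in Hnrnpl-null.

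**Figure D1:**
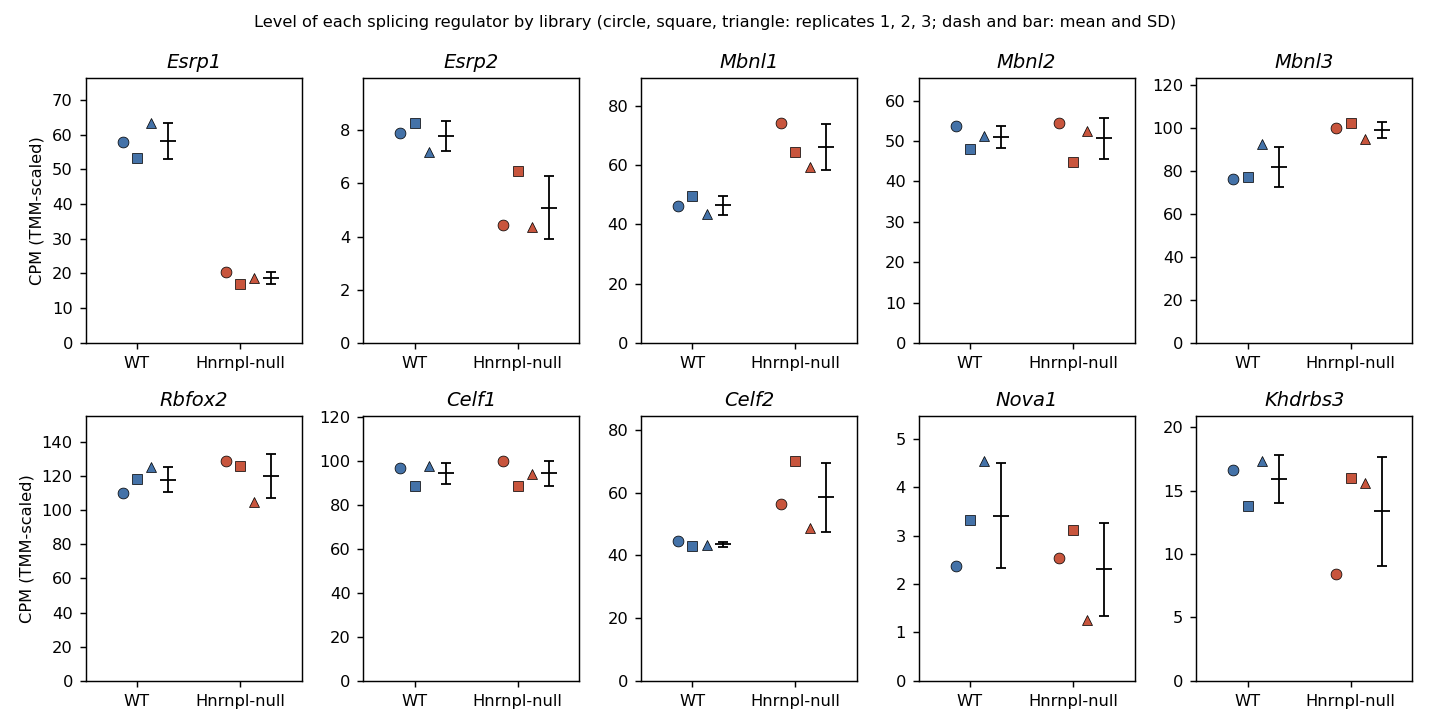
Level of each of the 10 regulators in the 6 libraries (y axis, CPM on the TMM-scaled library size, from 0; each panel has its own range), with WT in blue, Hnrnpl-null in red, 1 point per library and the mean with its SD beside the points. The groups are separate for Esrp1, Esrp2, Mbnl1, Mbnl3 and Celf2 and overlap for the other 5.

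Esrp1, an epithelial splicing regulator whose gene lies on chromosome 4 (11331933 to 11386783, mm10, minus strand), was at 58.0, 53.1 and 63.5 CPM in WT replicates 1 to 3. In Hnrnpl-null replicates 1 to 3 it was at 20.4, 17.0 and 18.7 CPM. Every Hnrnpl-null library lay below every WT library, and within each group the libraries were close together. The means were 58.2 ± 5.16 and 18.7 ± 1.71 CPM (SD, n = 3 each). The ratio of Hnrnpl-null to WT, which here and for the other genes is the one fitted by edgeR and not that of the mean CPM, was 0.322 (95% interval 0.263 to 0.393). This is a log2 fold change of -1.64 ± 0.13 (SE), at an edgeR adjusted p of 7.9e-06. The fall rested on 2643 counts in WT and 990 in Hnrnpl-null. Leaving out any 1 library kept the call, with log2 fold changes from -1.72 to -1.56 and edgeR adjusted p-values of 1.7e-04 or less. With both Rn45s-rich libraries left out it was -1.63.

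Esrp2, the paralogue of Esrp1 with a related role in epithelial splicing, lies on chromosome 8 (106131183 to 106136974, minus strand). It was at 7.90, 8.29 and 7.17 CPM in WT replicates 1 to 3. Hnrnpl-null replicates 1 to 3 were at 4.43, 6.47 and 4.37 CPM. The groups did not overlap, but Hnrnpl-null replicate 2 lay nearer to WT than to the other 2 libraries of its group. The ratio was 0.671 (95% interval 0.453 to 0.994) and the gene was not called (edgeR adjusted p = 0.26). The interval reaches from a large fall to almost no difference. Counts were low, at 14 in Hnrnpl-null replicate 3 and 60 to 200 in the other libraries.

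Per kilobase of exon, Esrp1 made up most of the ESRP RNA in every library. In WT replicates 1 to 3 its share of the summed Esrp1 and Esrp2 level was 83.2%, 81.2% and 85.6%. Hnrnpl-null replicates 1 to 3 had shares of 75.6%, 63.8% and 74.3%. The share was lower in each Hnrnpl-null library than in each WT library, by 12.1 percentage points between the means. With 3 libraries against 3 the exact two-sided permutation test cannot go below p = 0.10, which is the value it gave (adjusted p = 0.125 over 5 paralogue shares).

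Esrp1 is also expressed in germ cells, and 8 germ cell markers moved with it. All 8 of Ddx4, Dazl, Sycp3, Nobox, Sohlh1, Figla, Lhx8 and Tdrd1 were called lower, with a median log2 fold change of -2.02, and 5 to 8 of them were called when 1 library was left out. Their summed level was 227 to 251 CPM in WT and 71.6 to 85.0 CPM in Hnrnpl-null. Esrp1 amounted to 24.1%, 23.4% and 25.3% of that sum in WT replicates 1 to 3. In Hnrnpl-null replicates 1 to 3 it was 25.4%, 23.7% and 22.1% of the sum, so the groups overlapped (means 24.3 ± 0.956% and 23.7 ± 1.68%, SD, n = 3 each). The markers did not all fall by the same amount. Esrp1 fell further than Dazl and Ddx4, which encode RNA-binding proteins of germ cells and had log2 fold changes of -0.83 and -0.90. It fell less than Nobox, an oocyte transcription factor, at -3.25. Set against Ddx4 and Dazl alone, a pair chosen after their values were seen, Esrp1 was 69.4% to 77.2% of their sum in WT and 38.0% to 46.0% in Hnrnpl-null. The part of germ cell number in the Esrp1 result was not tested.

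**Figure D2:**
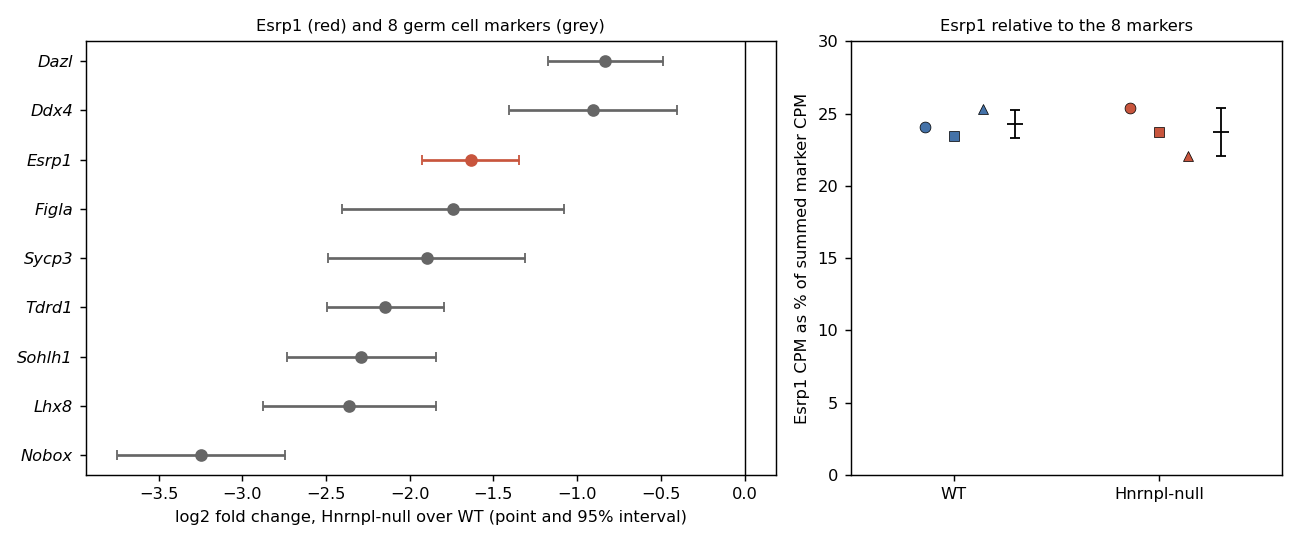
Left, log2 fold change of Hnrnpl-null over WT (x axis, point and 95% interval) for Esrp1 in red and 8 germ cell markers in grey, with Esrp1 at -1.64 between Ddx4 and Figla. Right, Esrp1 CPM as a percentage of the summed CPM of the 8 markers (y axis, from 0) in each library, with mean and SD, where the WT and Hnrnpl-null points overlap at 22.1% to 25.4%.

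Genes on a list of epithelial junctions and keratins were not called with Esrp1 in the main comparison. On a separate list of surface epithelium markers, given below, 3 were called higher. Of 12 genes of epithelial junctions and keratins, 11 were tested, and edgeR, DESeq2 and limma-voom each called 0. Of these, 2 had an unadjusted edgeR p below 0.05, Krt8 and Krt18, both higher in Hnrnpl-null. The median log2 fold change was -0.016. Much of the list was near the floor: Cldn3, Cldn4, Cldn6, Cldn7, Grhl2, St14 and Rab25 had means of 0.54 to 1.98 CPM over all libraries. The interval of the ratio was 0.216 to 1.38 for Cldn7 and 0.214 to 1.62 for Cldn4. For such genes the lack of a call cannot exclude a large fall. Among the more abundant genes, the lower end of the interval was at least 0.773 for Epcam, Krt7, Krt8 and Krt18, but 0.476 for Cdh1. With no filter on low counts, or with Hnrnpl-null replicate 1 left out, 1 member, Krt18, was called higher by edgeR. Epcam, an epithelial adhesion molecule, had a mean of 12.1 ± 2.63 CPM in the WT libraries and of 13.3 ± 2.99 CPM in the Hnrnpl-null libraries, and Cdh1, which encodes E-cadherin, was at 7.10 ± 1.99 and 5.07 ± 1.82 CPM (SD, n = 3 each). Both are chosen here as adhesion genes after their values were seen.

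The 3 genes whose profile over the 6 libraries was nearest to that of Esrp1 were Uchl1, Neb and Reln. Likeness was the root mean square difference between log2 CPM profiles, each centred on its own mean, among 9929 genes, and these 3 were at 0.093, 0.11 and 0.13 log2 units. Uchl1, a deubiquitinase abundant in oocytes and neurons, went from 62.8 ± 1.31 to 20.6 ± 1.75 CPM. Neb, which encodes the actin-binding protein nebulin, went from 66.2 ± 6.25 to 21.7 ± 3.52 CPM. Reln, which encodes the secreted glycoprotein reelin, went from 51.5 ± 1.43 to 15.5 ± 0.552 CPM. Each had groups that did not overlap, which follows from the choice by likeness to Esrp1.

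Mbnl1, a muscleblind regulator of exons in muscle and other tissues, lies on chromosome 3 (60472830 to 60629750, plus strand). RefSeq gives it 2 start sites, 28349 bases apart, and a count per gene sums RNA from both. The 300 bases around each start, 250 before and 50 after, are shown because Mbnl1 is the regulator that rose and its starts differ in type. Sequences are RefSeq's on GRCm38.p6, the same assembly as mm10, on the plus strand, with CG dinucleotides in capitals.
Mbnl1 upstream start, chr3:60472580-60472879: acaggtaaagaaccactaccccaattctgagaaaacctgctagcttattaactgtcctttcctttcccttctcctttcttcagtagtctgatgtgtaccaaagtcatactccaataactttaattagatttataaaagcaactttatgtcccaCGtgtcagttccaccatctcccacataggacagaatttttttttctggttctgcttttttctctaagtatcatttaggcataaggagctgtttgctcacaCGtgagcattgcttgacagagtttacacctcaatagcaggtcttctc
Mbnl1 downstream start, chr3:60500929-60501228: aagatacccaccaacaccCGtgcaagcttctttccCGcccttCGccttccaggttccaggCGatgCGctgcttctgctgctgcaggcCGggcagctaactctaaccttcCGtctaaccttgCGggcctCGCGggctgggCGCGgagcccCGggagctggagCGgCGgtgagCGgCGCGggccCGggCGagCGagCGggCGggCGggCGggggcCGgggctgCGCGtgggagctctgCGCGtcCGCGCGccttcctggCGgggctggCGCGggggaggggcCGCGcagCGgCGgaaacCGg
The upstream window has 2 CG dinucleotides and 39.3% G and C, and 85.9% of the 32851 windows in the table have as many or more. The downstream window has 41 CG dinucleotides, which 3.46% of windows reach. The median window has 7. Which start the counts came from cannot be read from them. The same table lists 5 starts for Celf2 and 1 each for Mbnl2, Mbnl3, Celf1 and Nova1. Esrp1, Esrp2, Rbfox2 and Khdrbs3 have no window there.

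Mbnl1 was at 46.4, 49.7 and 43.4 CPM in WT replicates 1 to 3. In Hnrnpl-null the 3 libraries were, in the same order, at 74.4, 64.5 and 59.4 CPM. All Hnrnpl-null libraries lay above all WT libraries. The means were 46.5 ± 3.13 and 66.1 ± 7.66 CPM (SD, n = 3 each) and the fitted ratio was 1.43 (95% interval 1.19 to 1.72). EdgeR gave a log2 fold change of 0.51 ± 0.12 (SE) at an adjusted p of 0.031. Of the 6 fits that left out 1 library, only the one without Hnrnpl-null replicate 3 still called Mbnl1, and the other 5 gave edgeR adjusted p-values of 0.090 to 0.13. The log2 fold change over these 6 fits was 0.42 to 0.58. With the pair of Rn45s-rich libraries left out the gene was called, at 0.58 (edgeR adjusted p = 0.017).

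Mbnl3, the muscleblind paralogue on the X chromosome (51113494 to 51205990, minus strand), known from muscle precursors and placenta, was at 76.1, 77.1 and 92.6 CPM in WT replicates 1 to 3. In Hnrnpl-null replicates 1 to 3 it was at 99.9, 102.6 and 95 CPM. The groups did not overlap, with WT replicate 3 close to Hnrnpl-null replicate 3. The ratio was 1.21 (95% interval 1.02 to 1.44) and the gene was not called (edgeR adjusted p = 0.21).

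Mbnl2, the other muscleblind gene in the set (chromosome 14, 120275669 to 120431698, plus strand), known from brain, was at 53.6, 48.1 and 51.1 CPM in WT replicates 1 to 3. The 3 Hnrnpl-null libraries, in the same order, were at 54.6, 44.9 and 52.5 CPM. The groups overlapped. The ratio was 0.993, and its 95% interval of 0.829 to 1.19 did not reach the fitted Mbnl1 ratio of 1.43 (edgeR adjusted p = 0.98). The Mbnl1 interval began at 1.19, so the intervals met, and a difference between the fold changes of these genes was not tested.

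Of the summed level of the 3 muscleblind genes per kilobase, Mbnl2 held the largest part and Mbnl1 the smallest in each WT library, whereas in Hnrnpl-null the ranges of the 3 overlapped. Mbnl1 took 25.6% to 30.7% in WT and 31.5% to 35.5% in Hnrnpl-null, and Mbnl2 took 37.4% to 41.0% and 29.8% to 35.0%. For each of these the groups did not overlap, with a difference between means of 5.50 and -6.27 percentage points (exact permutation test p = 0.10 each, the smallest possible, and adjusted p = 0.125 over the 5 shares). Mbnl3 took 30.8% to 36.4% in WT and 31.8% to 36.1% in Hnrnpl-null, where the groups overlapped.

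**Figure D3:**
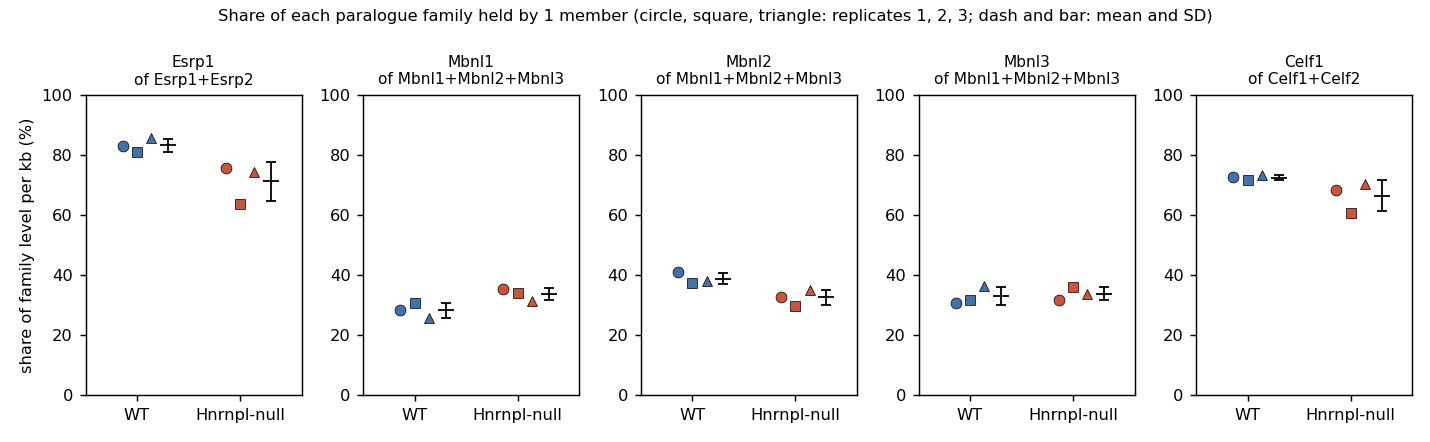
Share of a paralogue family's summed level per kilobase of exon held by 1 member (y axis, percent, 0 to 100) in each library, with WT in blue, Hnrnpl-null in red and mean with SD beside the points. Esrp1, Mbnl2 and Celf1 shares are lower and the Mbnl1 share is higher in every Hnrnpl-null library than in every WT library, and the Mbnl3 share overlaps.

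Celf1, which encodes a CELF protein that binds GU-rich RNA and acts on splicing and on mRNA decay, lies on chromosome 2 (90940397 to 91019497, plus strand). It was at 96.7, 88.9 and 97.8 CPM in WT replicates 1 to 3. Hnrnpl-null replicates 1 to 3 were at 100.3, 88.7 and 94.4 CPM. The groups overlapped almost fully, the ratio was 1.001 and its 95% interval was 0.853 to 1.17 (edgeR adjusted p = 0.999).

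Celf2, a CELF gene known from heart, brain and lymphocytes, lies on the same chromosome (6539699 to 7396198, minus strand). It was at 44.5, 42.9 and 43.4 CPM in WT replicates 1 to 3. In Hnrnpl-null the 3 libraries were, in the same order, at 56.5, 70.3 and 48.7 CPM. The WT libraries were nearly alike, whereas those of Hnrnpl-null were spread widely above them. The ratio was 1.36 (95% interval 1.11 to 1.66), which edgeR did not call (adjusted p = 0.092). DESeq2 and limma-voom did call it (adjusted p = 0.038 and 0.020), as did edgeR without Hnrnpl-null replicate 3 (adjusted p = 0.019) and without the 2 libraries richest in Rn45s (adjusted p = 0.025). Without Hnrnpl-null replicate 2, its highest library, the log2 fold change went from 0.44 to 0.28 (edgeR adjusted p = 0.37). The share of Celf1 in the summed Celf1 and Celf2 level was 71.7% to 73.4% in WT and 60.7% to 70.3% in Hnrnpl-null (exact permutation test p = 0.10, the smallest possible, and adjusted p = 0.125). Without Hnrnpl-null replicate 2 the difference between the means went from -6.09 to -3.19 percentage points.

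Leukocyte markers and part of the ovarian surface and stroma markers were called higher in Hnrnpl-null, where Mbnl1 and Celf2 were also higher. All 6 leukocyte markers (Ptprc, Coro1a, Laptm5, Mpo, Myb and Plac8) were called higher, also when any 1 library was left out, and their sum went from 20.6 to 22.7 CPM in WT to 523 to 664 CPM in Hnrnpl-null, mostly Mpo. Of 5 surface epithelium markers 3 were called higher (Krt19, Upk3b and Msln), and the sum of all 5 was 318 to 380 CPM in WT and 408 to 519 CPM in Hnrnpl-null. Of 6 stroma markers 3 were called higher (Dcn, Col1a1 and Col3a1), and the sum of all 6 was 4828 to 5229 CPM in WT and 7320 to 8321 CPM in Hnrnpl-null. The other surface markers, Lhx9 and Aldh1a2, had log2 fold changes of 0.14 and 0.19, and the other stroma markers, Pdgfra, Nr2f2 and Tcf21, had 0.15, -0.040 and -0.16. When 1 library was left out, 0 to 3 surface and 0 to 2 stroma markers were called, with 0 of either without Hnrnpl-null replicate 2. Among the erythroid markers edgeR and DESeq2 called 0 and limma-voom called 1 (Alas2). By edgeR Alas2 was at 0.94 with an adjusted p of 0.0502, the only one with an unadjusted p below 0.05, and Epor was at -0.37. Smooth muscle and pericyte markers had a median log2 fold change of -0.32 and endothelium markers of -0.35. In each of these lists 1 marker was above 0, and edgeR called 0. DESeq2 and limma-voom each called Myh11 and Cdh5 lower and Kdr higher. With robust dispersions edgeR called Cdh5 lower and Kdr higher. It also called Cdh5 lower with no filter on low counts and without both libraries richest in Rn45s. Of 8 pregranulosa markers 1, Kitl, was called higher (ratio 2.22, edgeR adjusted p = 3.7e-05). The median log2 fold change of that list was 0.049, with 5 of the 8 above 0. Irx3, Fst and Lgr5 were below 0, at -0.55, -0.39 and -0.13, and edgeR did not call them in the main comparison. DESeq2 and limma-voom called Irx3 lower. No marker of the lists in this paragraph was at 0 in all libraries. The part of these cells in the Mbnl1 and Celf2 values was not tested.

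The 3 genes nearest to Mbnl1 in profile were Taldo1, Erlin1 and Meis2, at 0.042, 0.064 and 0.071 log2 units. Taldo1, which encodes the enzyme transaldolase, went from 18.9 ± 1.65 to 27.1 ± 2.03 CPM. Meis2, a homeobox transcription factor, went from 18.49 ± 1.58 to 26.5 ± 1.29 CPM. Erlin1, a protein of the endoplasmic reticulum, went from 10.8 ± 0.94 to 15.3 ± 0.877 CPM. None of the 3 was called by edgeR. Each had groups that did not overlap, which the choice by likeness to Mbnl1 favours.

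**Figure D4:**
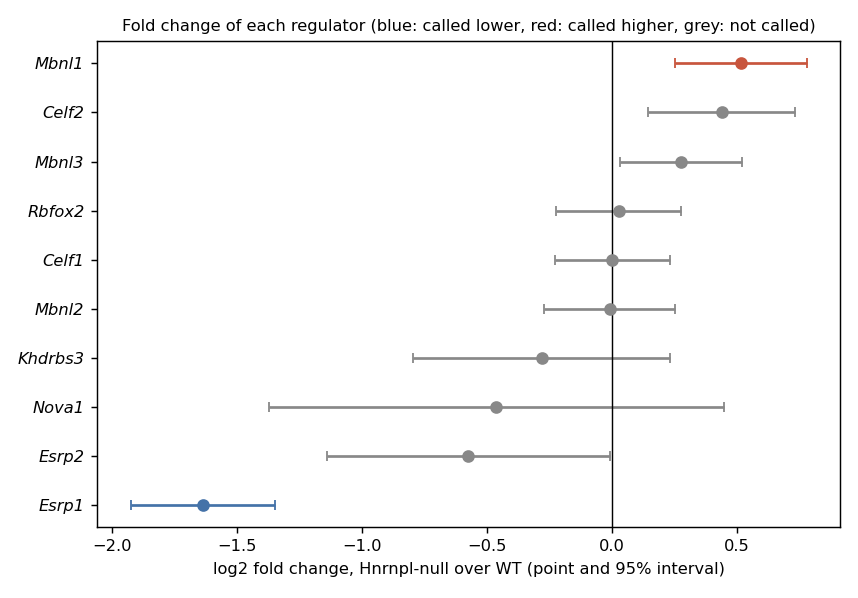
Log2 fold change of Hnrnpl-null over WT (x axis, point and 95% interval, unadjusted) for each regulator (y axis, ordered by value). Esrp1 at -1.64 and Mbnl1 at 0.51 are called, and the intervals of Rbfox2, Celf1, Mbnl2, Khdrbs3 and Nova1 cross 0.

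Rbfox2, an RBFOX protein of muscle, brain and epithelial or mesenchymal cells, had the highest mean CPM of the 10 (chromosome 15, 77078990 to 77307053, minus strand). It was at 110.1, 118 and 125 CPM in WT replicates 1 to 3. The 3 Hnrnpl-null libraries, in the same order, were at 129, 126 and 105 CPM. Both groups spanned a similar range. The ratio was 1.02, with a 95% interval of 0.857 to 1.21 (edgeR adjusted p = 0.93).

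Khdrbs3, which encodes a STAR protein also called SLM2, lies on the same chromosome (68928420 to 69093518, plus strand). It was at 16.6, 13.8 and 17.4 CPM in WT replicates 1 to 3. Hnrnpl-null replicates 1 to 3 were at 8.43, 16.0 and 15.6 CPM. Only Hnrnpl-null replicate 1 lay below the WT libraries. The ratio was 0.823 (95% interval 0.576 to 1.175, edgeR adjusted p = 0.58), and without that library the log2 fold change went from -0.28 to -0.0017.

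Nova1, a regulator known from neurons, was the lowest of the 10 (chromosome 12, 46697898 to 46818767, minus strand). It was at 2.37, 3.32 and 4.55 CPM in WT replicates 1 to 3. In Hnrnpl-null the 3 libraries were, in the same order, at 2.53, 3.12 and 1.25 CPM, and the last value is 4 counts. The groups overlapped, and the 95% interval of the ratio, 0.386 to 1.36, was wide (edgeR adjusted p = 0.62). The lack of a call therefore cannot exclude a fall to a ratio of 0.386. Neural and glial markers stood low beside it: 3 passed the filter, 0 of those were called by edgeR, and 0 had an unadjusted p below 0.05. DESeq2 and limma-voom called 0 as well.

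Set in order of level per kilobase of exon, Esrp1 was the highest of the 10 in WT, at 14.7 ± 1.30 CPM per kilobase, and stood at place 8 in Hnrnpl-null, at 4.71 ± 0.431. In WT its range lay wholly above that of the next gene, Rbfox2, at 12.0 ± 0.77. Below it Rbfox2, Celf1, Mbnl2, Mbnl3, Khdrbs3 and Mbnl1 followed from 12.0 down to 7.90, with ranges that overlapped between neighbours. Celf2 at 4.48, Esrp2 at 2.91 and Nova1 at 0.836 were each separate from the gene above. In Hnrnpl-null the order began with Rbfox2, Celf1, Mbnl1, Mbnl3 and Mbnl2 at 12.2 to 10.8, whose neighbours overlapped. Khdrbs3 at 7.05 and Celf2 at 6.01 came next, and Esrp2 at 1.91 and Nova1 at 0.564 came last. Mbnl1 stood at place 7 in WT and at place 3 in Hnrnpl-null. Exonic length is that of all exons of a gene merged, so genes with many alternative exons are set too low on this scale.

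The 10 genes shared no long stretch of transcript with each other. Of the 50-base words in the GENCODE M21 transcripts of each regulator, 0 were shared with another of the 10. Words shared with any other gene made up 6.96% for Celf2, 5.30% for Esrp2, 3% for Nova1, 1.23% for Esrp1 and at most 0.388% for the rest. In the authors' annotation no exon of the 10 overlapped that of another gene.

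Among 22 further regulators of the same families or of like tissue restriction, 17 were tested and 0 were called by edgeR, beside 4.46% of all genes called in either direction. Without adjustment 3 of the 17 had an edgeR p below 0.05, as did 2746 of the 14849 genes tested. The median log2 fold change was -0.15, beside -0.010 over all genes tested. DESeq2 and limma-voom each called 1, Elavl2, as lower. The most abundant 3 were Qk, which encodes Quaking, at means of 106 ± 8.58 (WT) and 116 ± 6.88 CPM (Hnrnpl-null), Msi2, a Musashi protein, at 79.6 ± 9.96 and 87.2 ± 4.40 CPM, and Khdrbs1, which encodes SAM68, at 63.7 ± 8.21 and 71.7 ± 13.3 CPM (SD, n = 3 each). None of these 3 was called.

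The 3 with an unadjusted p below 0.05 were Elavl2, Nova2 and Rbfox3, which are named here after their values were seen. Elavl2, an RNA-binding protein of neurons and oocytes, was at 11.9, 14.4 and 22.7 CPM in WT replicates 1 to 3. The 3 Hnrnpl-null libraries, in the same order, were at 9.53, 7.69 and 11.9 CPM. The groups met at WT replicate 1, the lowest of WT, and Hnrnpl-null replicate 3, the highest of its group (edgeR adjusted p = 0.092). Those are the libraries richest in Rn45s, and without them edgeR called Elavl2, at -1.10 on the log2 scale with an adjusted p of 0.0096. Leaving out the lowest WT and the highest Hnrnpl-null library widens the difference by itself, so that call is no separate support. Nova2 was at 57.4 CPM in WT replicate 1 against 1.07 to 3.997 CPM in the other 5 libraries. Without WT replicate 1 its log2 fold change went from -3.31 to -0.75 (edgeR adjusted p = 0.59). With WT replicate 1 kept, Nova2 was called by edgeR under the replicate block (adjusted p = 0.0065), with no filter on low counts (3.9e-09) and without WT replicate 2 (0.036). Rbfox3, a neuronal RBFOX gene, rested on 8, 28 and 18 counts in WT and on 13, 4 and 0 in Hnrnpl-null, and was not called (edgeR adjusted p = 0.21).

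**Figure D5:**
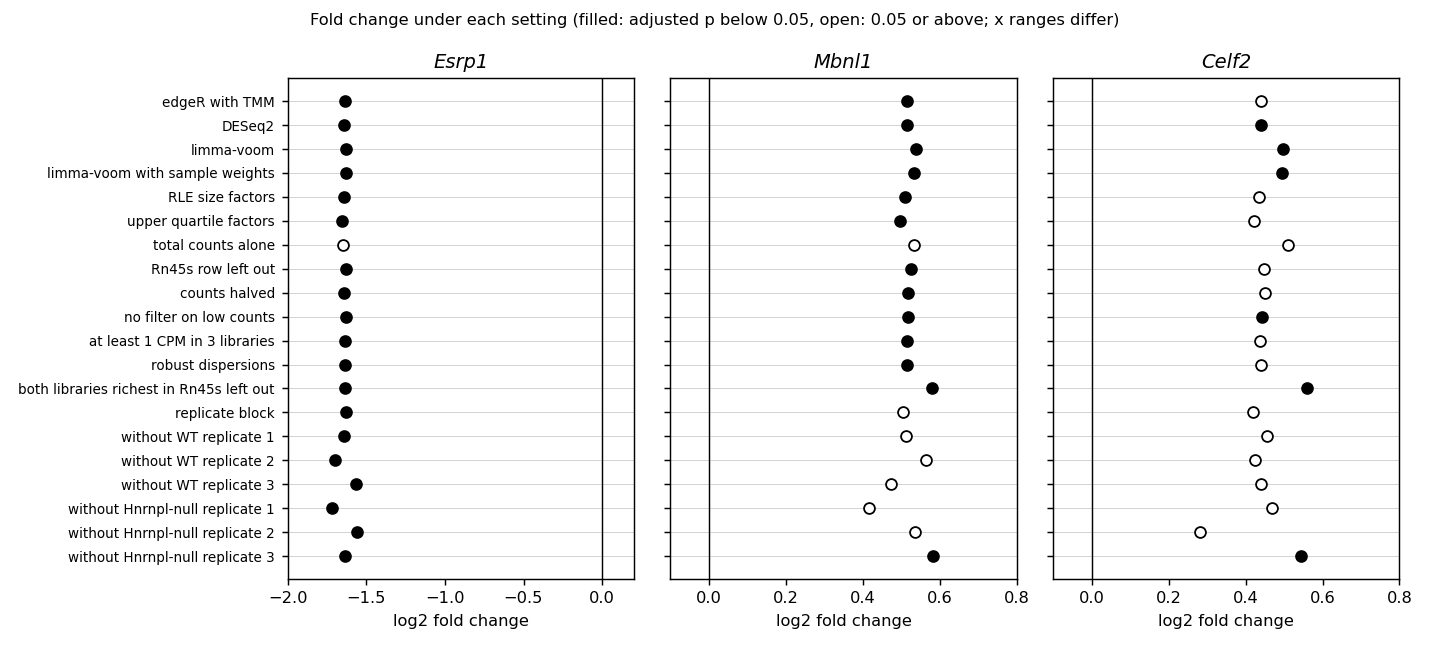
Log2 fold change of Hnrnpl-null over WT (x axis, a range per panel) of Esrp1, Mbnl1 and Celf2 under each setting (y axis), with filled points for an adjusted p below 0.05. Esrp1 stays between -1.72 and -1.56 and is filled except with total counts alone. Mbnl1 is open in 5 of the 6 settings that leave out 1 library, and Celf2 is filled in 6 of the 19 alternatives.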

How the data were processed

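The authors deposited 1 table of raw counts per gene, in the layout of featureCounts per the file headers, with 1 column per library and an exonic length per gene. The tools listed in the submitters' processing notes, without roles, are featureCounts 2.0.6, STAR 2.7.11a and HISAT2 2.2.1, and the build is mm10. Annotation, strand setting and treatment of multiply mapped reads were not given in the sources used here. Low counts were mostly even (93.4% to 98.4% of counts from 1 to 20 per library), as when each mate of a pair is counted.

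The counts went into the quasi-likelihood test of edgeR 4.0.16, run in R 4.3.3 (filterByExpr, TMM, glmQLFit and glmQLFTest, two-sided, genotype as the only term, all 6 libraries), and p-values were adjusted over all 14849 genes tested. The test was tried on simulated counts. Standard errors came from its F statistic, and intervals are 95%, not adjusted. Paralogue shares used counts per kilobase of exon. Text names all 10 regulators, Hnrnpl, called or most abundant related regulators, and the 3 genes nearest in profile to each called regulator (mean CPM of at least 5, no gene models). The members and lists were chosen with earlier results of these data known. Alternatives were DESeq2 1.42.0, limma 3.58.1 voom, other scalings and filters, left-out libraries and a replicate block. Some markers of the lists are not reported here.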

Additional observations from a re-analysis of the deposited data

How the results depend on the processing

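The number of regulators called lower was 1, Esrp1, in 19 of 20 alternatives, and 0 with total counts alone, where 4 genes were called in all (3 higher and 1 lower) and Esrp1 was at -1.65 with an edgeR adjusted p of 1. The number called higher was 2 (Mbnl1 and Celf2) with DESeq2, with limma-voom with or without sample weights, with no filter on low counts and without both libraries richest in Rn45s. It was 0 with total counts alone, with the replicate block and at an adjusted p below 0.01, and 0 to 2 when 1 library was left out. Related regulators called numbered 1 (Elavl2) with DESeq2, both forms of limma-voom, robust dispersions and without both libraries richest in Rn45s, 1 (Nova2) with the replicate block, 2 (both) with no filter, and 0 to 1 (Nova2) when 1 library was left out. Genes called in all numbered 1086 with DESeq2, 1273 with limma-voom, 1222 with sample weights, 1104 with no filter, 236 at an adjusted p below 0.01 and 249 to 853 when 1 library was left out, against 663. These totals move with the test, and the cause was not tested.

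Among the fold changes of the 10 regulators, signs turned for Celf1, Mbnl2 and Rbfox2, which were not called. The log2 fold change of Celf1 was -0.0024 with DESeq2, -0.0022 with RLE factors, -0.016 with upper quartile factors, -0.00032 with total counts alone and -0.00067 with halved counts, and -0.048 to 0.046 when 1 library was left out. That of Mbnl2 was 0.0017 without the Rn45s row and 0.0098 without both libraries richest in it, and -0.075 to 0.076 when 1 library was left out. That of Rbfox2 was -0.029 to 0.11 when 1 library was left out. When 1 library was left out, the difference in paralogue share between the group means was -14.3 to -8.38 percentage points for Esrp1, 4.22 to 6.78 for Mbnl1, -7.50 to -4.93 for Mbnl2, -0.38 to 2.47 for Mbnl3 and -8.00 to -3.19 for Celf1. The Mbnl3 difference, 0.77, also turned sign without both libraries richest in Rn45s, at -0.20.

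Replicate numbers showed no pairing of the samples in the counts. Same-numbered libraries had correlations of -0.12, 0.088 and -0.089 between their deviations from the group means, and not every library correlated best with its own number. With so few libraries a group, and with WT replicate 1 and Hnrnpl-null replicate 3 rich in Rn45s, these correlations cannot exclude a pairing. With the replicate block 444 genes were called, and Mbnl1 was at 0.50 (edgeR adjusted p = 0.062). Among the 10 regulators Nova1 and Esrp2 had the lowest counts in each library.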
